A study of Rattus norvegicus with 22 samples.

Results

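The comparison was between finerenone and spironolactone in the kidney of rats that received deoxycorticosterone acetate (DOCA), measured as the cell type composition of single-nucleus RNA-Seq (snRNA-Seq) libraries. In this assay the transcripts of single nuclei are tagged with a barcode in droplets, and each nucleus is then named by the genes it expresses. All libraries whose treatment was given as Finerenone or Spironolactone were taken, which gave 10 of 22 libraries and 194845 of 310282 nuclei. Both groups were male Sprague-Dawley rats with 1 kidney removed, weekly DOCA at 50 mg/kg and salt in the drinking water, so that the drug was the only named difference. Finerenone was given at 10 mg/kg per day and spironolactone at 50 mg/kg per day. The doses therefore differ, and the values stand side by side as 2 treatments and not as 2 compounds at a matched dose. Each group has 4 samples from 6 weeks and 1 from 3 weeks of treatment. No library was matched to a sample, so the 3-week library of a group is not identified here. The DOCA rats had the same surgery, DOCA and salt, with vehicle in place of a drug, and the same mix of time points as the drug groups. The control rats were sham operated and kept both kidneys, received neither DOCA, salt nor a drug, and were all taken at 6 weeks. The libraries of DOCA and control rats (5 each) are given as background, and DOCA, surgery and salt cannot be told apart between them.

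DOCA is a mineralocorticoid. It acts on the mineralocorticoid receptor, which in the distal nephron and the principal cells of the collecting duct raises sodium reabsorption through the epithelial sodium channel. Spironolactone is a steroidal antagonist of this receptor and also binds sex hormone receptors, whereas finerenone is nonsteroidal and more selective. In the proximal tubule, which reabsorbs most of the filtered solutes, injury shifts cells into a dedifferentiated state, which the deposited names call iPT, and immune cells and fibroblasts accumulate in hypertensive kidney damage.

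The finerenone libraries held 6564, 9325, 13679, 40267 and 48403 nuclei, together 118238. The spironolactone libraries held 759, 6404, 13610, 22151 and 33683 nuclei, together 76607. A library is named below by its treatment and its number of nuclei. Size was thus very unequal, and the pair of finerenone libraries over 30000 nuclei and the single spironolactone library over 30000 nuclei carried much of any pooled value. These 3 libraries were also the only ones of both treatments with the tag New in their names. Size and tag therefore cannot be told apart, and what the tag means is not given in the sources used here. The 3-week library of a group may be among them or not, since no library was matched to a sample. Weeks of treatment can thus not be told apart from size and tag either. The names of the libraries of 13679 and 22151 nuclei end in MO, which was taken here to mean the Multiome kit. No label gives the kit of a library. Of the 45 pairs of libraries, the share of barcodes held in common ranged from 0% to 3.00% of the smaller library, with a median of 0.429%. The highest value was between the Multiome libraries, and the highest among all other pairs was 1.84%. In all, 3222 of 191599 barcodes were found in 2 or more libraries.

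The deposited annotation has 16 cell types. The proximal tubule is split into PCT (convoluted), PST (straight) and iPT (injured). LOH is the loop of Henle and DCT the distal convoluted segment after it. The collecting duct holds PC, the principal cells, with IC_A and IC_B, the intercalated cells that handle acid and base. Prolif_Tubule are proliferating tubule cells and Podo are podocytes, the cells of the glomerular filter. Endo (endothelium), Fibroblast and MyoFib (myofibroblasts, which lay down matrix), and Mac, Mono and Lymphocyte (immune cells) complete the list. Gene values were not used here, so these names were not checked against markers. A share is the number of nuclei of a type in percent of a library, and the shares of a library sum to 100%, so one abundant type lowers all others.

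**Figure D1:**
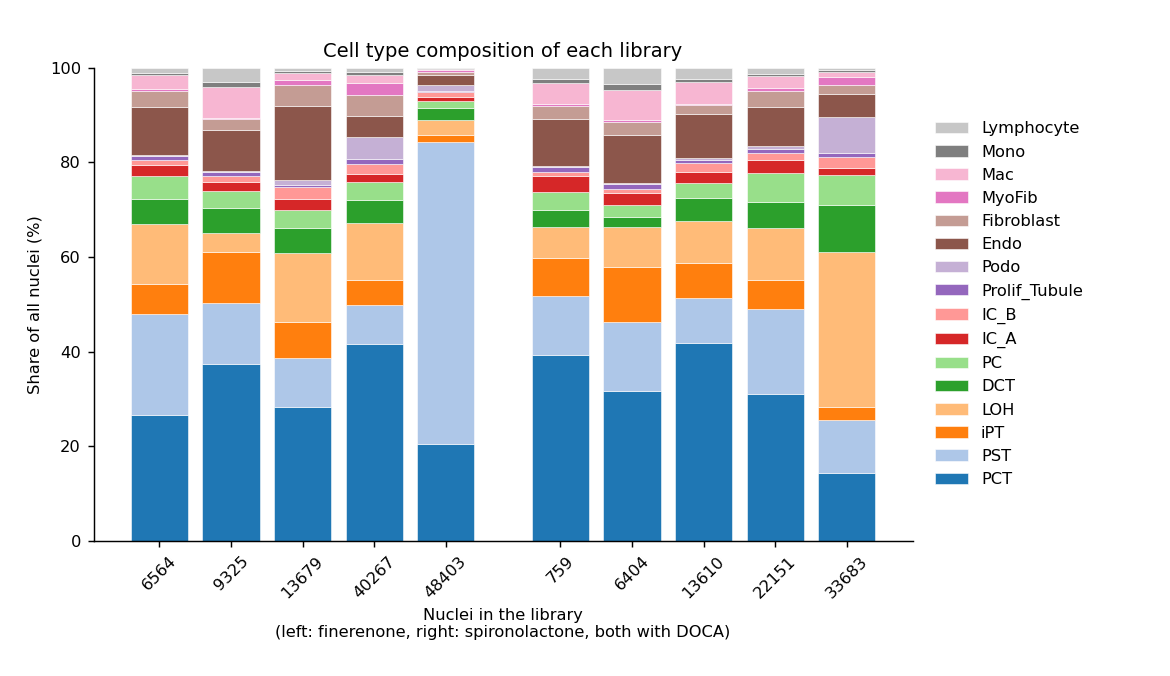
Composition of each library. Each bar is 1 library, named by its number of nuclei on the horizontal axis, with finerenone on the left and spironolactone on the right. Colors give the share of all nuclei (%) of the 16 cell types. PST takes 63.8% of the finerenone library of 48403 nuclei, and LOH 32.7% of the spironolactone library of 33683 nuclei.

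No cell type passed the test between finerenone and spironolactone. Of 16 types, 0 passed an exact two-sided permutation test with the library as the unit, after Benjamini-Hochberg adjustment (0% called), and 0 had an unadjusted p under 0.05. The smallest unadjusted p was 0.127, for IC_A, and its adjusted value was 0.929. The smallest p that the design allows is 0.00794. A single type at this p would have an adjusted p of 0.127, so at least 3 types would have to reach it together to be called, and the count of 0 says little about any single type. The libraries of both treatments overlapped in every type, and all 16 intervals of the difference contained 0, which does not show that the shares were equal. The mean was higher with finerenone in 4 types and lower in 12. The libraries are taken as replicates, and the p-values measure the spread between libraries, since nothing ties a library to a single rat. The spironolactone libraries of 13610 and 33683 nuclei share a number in their names. If they came from 1 rat, that group would hold 4 rats and not 5, and with both merged 0 of the 16 types had an unadjusted p under 0.05.

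PST, the last part of the proximal tubule, had the widest gap between means. It was 21.3%, 12.8%, 10.4%, 8.30% and 63.8% in the finerenone libraries of 6564, 9325, 13679, 40267 and 48403 nuclei. In the spironolactone libraries it was 12.5%, 14.6%, 9.50%, 18.1% and 11.2% in the order of their size. A single finerenone library was above all others, and the other 4 lay among or close to the spironolactone libraries. The mean was 23.3% ± 23.2 (SD, n = 5) with finerenone and 13.2% ± 3.31 (SD, n = 5) with spironolactone. The difference of 10.2 percentage points had a 95% interval from -5.78 to 32.2 (exact permutation p = 0.50, adjusted p = 0.929). Pooled over nuclei, where the large library has the most weight, the difference was 19.2 points. Leaving out the finerenone library of 48403 nuclei alone brought the equally weighted difference to 0.0384 points (exact permutation p = 1.00). Without the libraries over 30000 nuclei it was 1.17 points between equally weighted means and -1.15 points between pooled shares. For comparison, PST was 9.82% ± 1.48 (SD, n = 5) in DOCA and 12.3% ± 2.91 (SD, n = 5) in control libraries.

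LOH, which builds the salt gradient of the medulla, had its gap on the other side. The finerenone libraries had 12.7%, 3.95%, 14.6%, 12.0% and 3.26% in the order of their size, and the spironolactone libraries 6.59%, 8.62%, 8.88%, 11.0% and 32.7%. Here 1 spironolactone library was far above the rest, and finerenone libraries lay on both sides of the other spironolactone libraries. The means were 9.30% ± 5.29 and 13.6% ± 10.8 (SD, n = 5 each), and the difference was -4.26 points (95% interval -18.2 to 5.68, exact permutation p = 0.595, adjusted p = 0.929). Without the libraries over 30000 nuclei the sign turned, to 10.4% with finerenone and 8.77% with spironolactone. Control libraries had 15.9% ± 6.58 and DOCA libraries 8.87% ± 3.00 (SD, n = 5 each).

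The injured proximal tubule cells, iPT, had close means in the libraries up to 30000 nuclei and lower shares in the larger ones. With finerenone they were 6.40%, 10.9%, 7.60%, 5.34% and 1.48% of nuclei in the order of library size. With spironolactone they were 8.04%, 11.5%, 7.44%, 6.18% and 2.92%. The treatments overlapped over nearly their whole ranges. The means were 6.35% ± 3.44 and 7.22% ± 3.11 (SD, n = 5 each), with a difference of -0.871 points (95% interval -5.97 to 4.08, exact permutation p = 0.667, adjusted p = 0.929). Without the libraries over 30000 nuclei they were 8.31% and 8.29%, and the exact permutation p was 1.00. DOCA libraries had 8.00% ± 2.74 and control libraries 4.57% ± 1.16 (SD, n = 5 each). The interval of the difference reached beyond the size of the gap between DOCA and control in both directions. A difference of that size between the drugs is thus not excluded in either direction by these libraries. Among proximal tubule nuclei alone (PCT, PST and iPT), iPT made up 11.5% ± 6.40 with finerenone and 13.5% ± 3.79 with spironolactone (SD, n = 5 each, exact permutation p = 0.603, adjusted p = 0.838).

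PCT, the most abundant type in 8 of the 10 libraries, had nearly equal means of 30.9% ± 8.51 and 31.6% ± 10.7 (SD, n = 5 each). The difference was -0.720 points (95% interval -13.4 to 12.7). The pooled shares went the other way, with 30.2% for finerenone and 25.7% for spironolactone.

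The mineralocorticoid target segments overlapped as well. PC, the main site of mineralocorticoid action, were 4.89%, 3.65%, 3.80%, 3.94% and 1.49% in the finerenone libraries and 3.95%, 2.42%, 3.23%, 6.04% and 6.31% in the spironolactone libraries, in the order of size. The lowest and the highest value were both in libraries over 30000 nuclei. The means were 3.55% ± 1.25 and 4.39% ± 1.72 (SD, n = 5 each), a difference of -0.838 points (95% interval -2.99 to 1.44, exact permutation p = 0.405). Without those libraries they were 4.11% and 3.91%. DCT, which also carries the receptor, had 4.58% ± 1.17 and 5.15% ± 2.97 (SD, n = 5 each, exact permutation p = 0.762).

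The acid-secreting IC_A had the smallest p of the 16 types. The finerenone libraries had 2.36%, 1.76%, 2.29%, 1.57% and 0.839% and the spironolactone libraries 3.29%, 2.53%, 2.34%, 2.73% and 1.51%, in the order of size. Within the libraries up to 30000 nuclei, the highest finerenone value was just above the lowest spironolactone value. The difference was -0.715 points (95% interval -1.71 to 0.207), and it kept its sign in every alternative run. It did not pass the test with all libraries or without those over 30000 nuclei (exact permutation p = 0.0857, adjusted p = 0.718). When only the spironolactone library of 33683 nuclei was left out, the difference was -0.959 points (exact permutation p = 0.0397, adjusted p = 0.607). The difference of the main comparison was slightly larger than the SD within either drug, which was 0.617 with finerenone and 0.652 with spironolactone. Control libraries had 3.79% ± 0.832 and DOCA libraries 3.03% ± 0.483 (SD, n = 5 each). IC_B, their base-secreting counterpart, had 1.64% ± 0.724 and 1.48% ± 0.623 with finerenone and spironolactone (SD, n = 5 each).

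**Figure D2:**
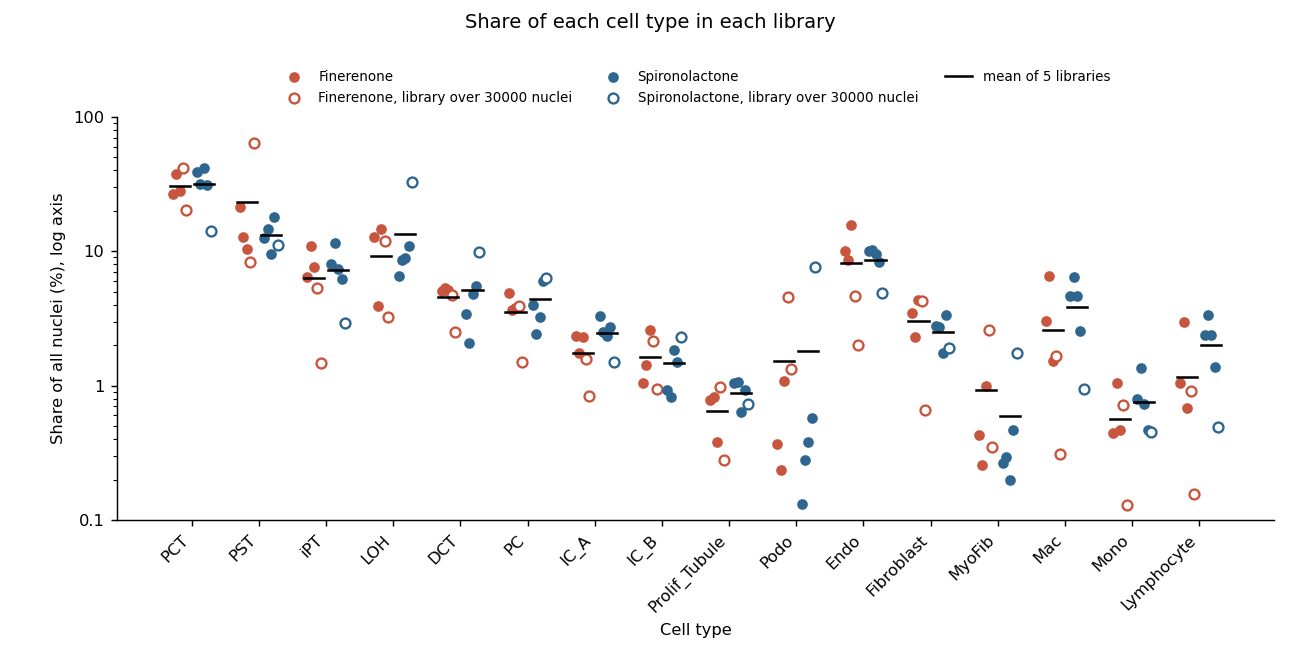
Share of each cell type in each library, on a log axis (% of all nuclei). Each point is a library, open points are libraries over 30000 nuclei, and black bars are means of 5 libraries. The treatments overlap in all 16 types, and open points lie at the edge of many columns, such as Podo (1.32% to 7.68%) and Endo (2.01% to 4.93%).

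The remaining types showed the same overlap. Podocytes ranged from 0.236% to 4.61% with finerenone and from 0.132% to 7.68% with spironolactone, and the lowest value was a single nucleus of 759 (exact 95% binomial interval 0.00334% to 0.732%, counting error only). Endothelial nuclei had means of 8.21% ± 5.29 and 8.59% ± 2.17, and fibroblasts 3.01% ± 1.56 and 2.51% ± 0.673 (SD, n = 5 each). The fibroblast difference of 0.497 points was 1.09 when the largest finerenone library was left out, and 0.160 when that of 13679 nuclei was. Myofibroblasts had 0.921% ± 0.974 and 0.594% ± 0.650, and proliferating tubule cells 0.648% ± 0.301 and 0.880% ± 0.192 (SD, n = 5 each). The myofibroblast difference of 0.327 points turned to -0.0897 when the finerenone library of 40267 nuclei was left out. For proliferating tubule cells, DOCA libraries had 1.25% ± 0.351 and control libraries 0.294% ± 0.207 (SD, n = 5 each).

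The 3 immune types had lower means with finerenone, without passing the test. Macrophages were 2.61% ± 2.39 against 3.84% ± 2.12, monocytes 0.561% ± 0.343 against 0.758% ± 0.361, and lymphocytes 1.16% ± 1.07 against 2.00% ± 1.10 (SD, n = 5 each, exact permutation p = 0.405, 0.317 and 0.262). Together they were 4.32% ± 3.76 and 6.59% ± 3.55 of nuclei (SD, n = 5 each), a difference of -2.27 points (95% interval -7.52 to 2.81). Single libraries moved these differences without turning their sign. The macrophage difference of -1.23 points became -2.21 when the finerenone library of 9325 nuclei was left out, and -0.582 when the spironolactone library of 6404 nuclei was. Leaving out the same libraries took monocytes from -0.197 to -0.320 and -0.0508, and lymphocytes from -0.839 to -1.29 and -0.494. DOCA libraries had 6.38% ± 2.45 and control libraries 2.20% ± 0.959 (SD, n = 5 each). The interval again contains 0 and is wide beside the level in DOCA libraries.

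**Figure D3:**
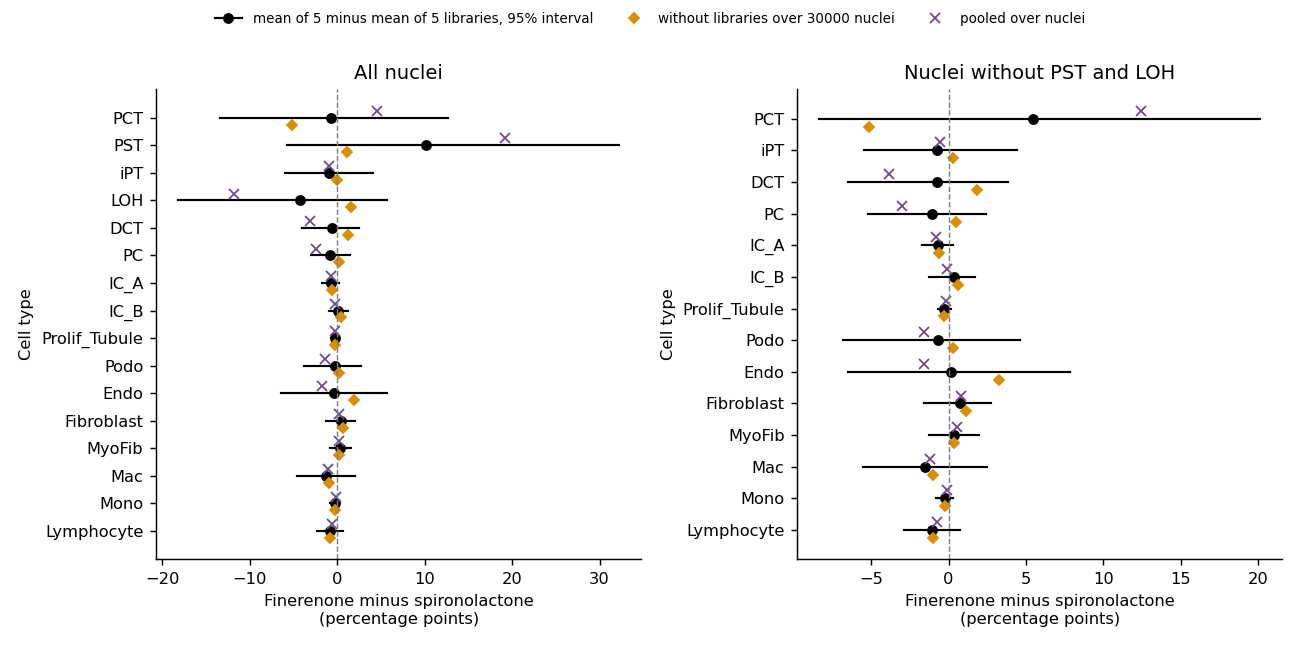
Difference in share, finerenone minus spironolactone, in percentage points, for all nuclei (left) and without PST and LOH (right). Black points are differences of equally weighted means with 95% intervals, diamonds leave out libraries over 30000 nuclei, and crosses are pooled over nuclei. Every interval crosses 0, and the equally weighted PST difference of 10.2 points is 1.17 without those libraries, where the pooled PST difference turns from 19.2 to -1.15 points (not drawn).

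Because PST and LOH each dominated 1 large library, the shares were recomputed without both types. Again 0 of 14 types passed (0% called), 0 had an unadjusted p under 0.05, and the smallest was 0.127 for IC_A (exact permutation, adjusted p = 0.825). All 14 intervals contained 0. PCT then had 47.4% ± 9.86 with finerenone and 42.0% ± 10.0 with spironolactone (SD, n = 5 each), a difference of 5.44 points (95% interval -8.34 to 20.1). It became -5.15 points without the libraries over 30000 nuclei. For iPT the means were 8.83% ± 3.33 and 9.59% ± 3.52 (SD, n = 5 each), and without those libraries 11.0% and 10.7%. IC_A was 2.65% ± 0.666 and 3.35% ± 0.603 (SD, n = 5 each). Proliferating tubule cells had an unadjusted exact permutation p of 0.0238 when the spironolactone library of 13610 nuclei was left out (adjusted p = 0.333). Leaving out both types thus gave no call after adjustment.

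With the libraries over 30000 nuclei left out, 3 finerenone and 4 spironolactone libraries remained, for which no exact p below 0.0286 is possible. Whether the 3-week libraries remained is not known, so the mix of weeks may differ from that of all libraries. Among all nuclei and among nuclei without PST and LOH, 0 types had an unadjusted p under 0.05 by the exact permutation test. The means with finerenone and spironolactone were 11.5% and 9.50% for endothelium, 3.37% and 2.66% for fibroblasts, and 3.69% and 4.56% for macrophages. Relative to all libraries, 6 of the 16 differences turned sign. These were iPT, LOH, DCT, PC, Podo and Endo.

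Shares within related types do not depend on how many nuclei of other types a library holds. The immune and the tubule share of all nuclei were tested with them. Of these 10 shares, 0 passed after adjustment (0% called) and 1 had an unadjusted p under 0.05 (10% called), which was the lymphocyte share of immune nuclei. In the finerenone libraries it was 23.3%, 28.3%, 25.6%, 27.7% and 26.3% in the order of size. In the spironolactone libraries it was 30.5%, 30.3%, 30.6%, 31.0% and 26.1%. Spironolactone libraries up to 30000 nuclei were all above the finerenone libraries, and the spironolactone library of 33683 nuclei lay within the finerenone range. The means were 26.2% ± 1.94 and 29.7% ± 2.02 (SD, n = 5 each), a difference of -3.49 points (95% interval -6.31 to -0.425, exact permutation p = 0.0317). This permutation p failed the correction for the 10 shares (adjusted p = 0.317), which 1 share alone could not pass (smallest possible adjusted p = 0.0794). Unadjusted, it was also above 0.05 when the finerenone library of 6564 nuclei was left out (0.0556), or any 1 of the spironolactone libraries up to 30000 nuclei (0.0714 to 0.0794). With the spironolactone libraries of 13610 and 33683 nuclei merged, the exact permutation p was 0.0159 and the adjusted p 0.159.

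Without the libraries over 30000 nuclei, the lymphocyte share of immune nuclei did not overlap between the treatments (1 of 10 shares, 10%), with a difference of -4.89 points. The exact permutation p was the smallest that these libraries allow (0.0286), and the adjusted p was 0.286. The immune nuclei behind it were few. The spironolactone library of 759 nuclei had 18 lymphocytes among 59 immune nuclei (exact 95% binomial interval 19.2% to 43.9%), and the finerenone library of 6564 nuclei had 69 of 296 (18.6% to 28.6%). The share was 25.5% ± 5.49 in DOCA and 20.1% ± 7.48 in control libraries (SD, n = 5 each), and the SD within either of these treatments was larger than the difference between the drugs.

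The other 9 related shares had intervals that contained 0. IC_A made up 52.1% ± 10.6 of intercalated cells with finerenone and 62.6% ± 15.7 with spironolactone (SD, n = 5 each, exact permutation p = 0.238). MyoFib made up 22.4% ± 13.1 and 17.7% ± 16.9 of fibroblasts and myofibroblasts, and macrophages 78.1% ± 8.29 and 81.3% ± 7.78 of macrophages and monocytes (SD, n = 5 each). PST made up 37.9% ± 23.5 and 31.0% ± 10.0 of PCT and PST (SD, n = 5 each). The medians went the other way, at 26.9% and 31.6%. The finerenone library of 48403 nuclei had 75.7%, and the sign of the difference turned when it was left out.

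Some shares went along with library size, where spironolactone had a single library over 30000 nuclei. Between the 3 libraries over 30000 nuclei and the 7 others, 4 of 16 types did not overlap (25% of types). Podocytes were higher in all 3, at 1.32% to 7.68% against 0.132% to 1.08%. Endothelium was lower, at 2.01% to 4.93% against 8.32% to 15.8%, as was iPT, at 1.48% to 5.34% against 6.18% to 11.5%. IC_A was 0.839% to 1.57% against 1.76% to 3.29%. Without PST and LOH, 3 of 14 did not overlap (21.4%), which were again Podo, Endo and iPT. Among related shares 3 of 10 did not overlap (30%). MyoFib made up 34.6% to 47.8% of fibroblasts and myofibroblasts in the libraries over 30000 nuclei and 8.70% to 18.5% in the others. Macrophages made up 67.6% to 70.4% against 76.6% to 87.2% of macrophages and monocytes, and the third was iPT among proximal tubule nuclei. These libraries were grouped after their sizes had been seen, so the values are given with no test. The tag New differs along with size, weeks of treatment may do so too, and neither was tested.

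The tag New was also on 3 libraries of other treatments, which held fewer nuclei. These were a DOCA library of 13307 nuclei and the amiloride libraries of 10172 and 11144 nuclei. Podocytes were 0.534%, 0.619% and 1.24% in them, and only the last was above the 7 libraries up to 30000 nuclei. Endothelium was 8.33%, 12.0% and 5.84%, and again only the last lay on the side of the large libraries. IC_A was 2.93%, 4.98% and 2.18%, and none was below the 7 libraries. In all 3, iPT was below those 7 libraries, at 4.64%, 4.43% and 3.30%, and so were macrophages among macrophages and monocytes, at 70.8%, 70.8% and 71.4%. MyoFib made up 43.7%, 17.6% and 30.9% of fibroblasts and myofibroblasts, where the first and the last were above the 7 libraries. These libraries thus shared some features of those over 30000 nuclei and lacked others. Control libraries, none of which had the tag New, also had low iPT, at 2.79% to 5.95%. In them, macrophages made up 72.1% to 86.5% of macrophages and monocytes, with a median of 73.9%.

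Whole compositions did not separate by drug. The distance between 2 libraries was taken over the centered log ratios of all 16 shares (natural log), where 0 means the same composition. It was 3.14 on average over the 25 pairs of different treatment and 3.26 over the 20 pairs of the same treatment. The difference of -0.122 had an exact one-sided permutation p of 0.563. The nearest library was of the other drug for 8 of 10 libraries and of the same drug for 2. Each library had more candidates of the other drug than of its own, and several of these links were mutual. This count was not tested. The closest pair was the finerenone library of 6564 and the spironolactone library of 22151 nuclei, at 0.730. The spironolactone library of 33683 nuclei was nearest to the finerenone library of 40267 nuclei, at 2.29. Distances averaged 4.31 between the libraries over 30000 nuclei and the others. They averaged 3.16 among the libraries over 30000 nuclei (2.29 to 3.63), and 2.07 among the others. Among these others, pairs of different drugs averaged 2.08 and pairs of the same drug 2.06.

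**Figure D4:**
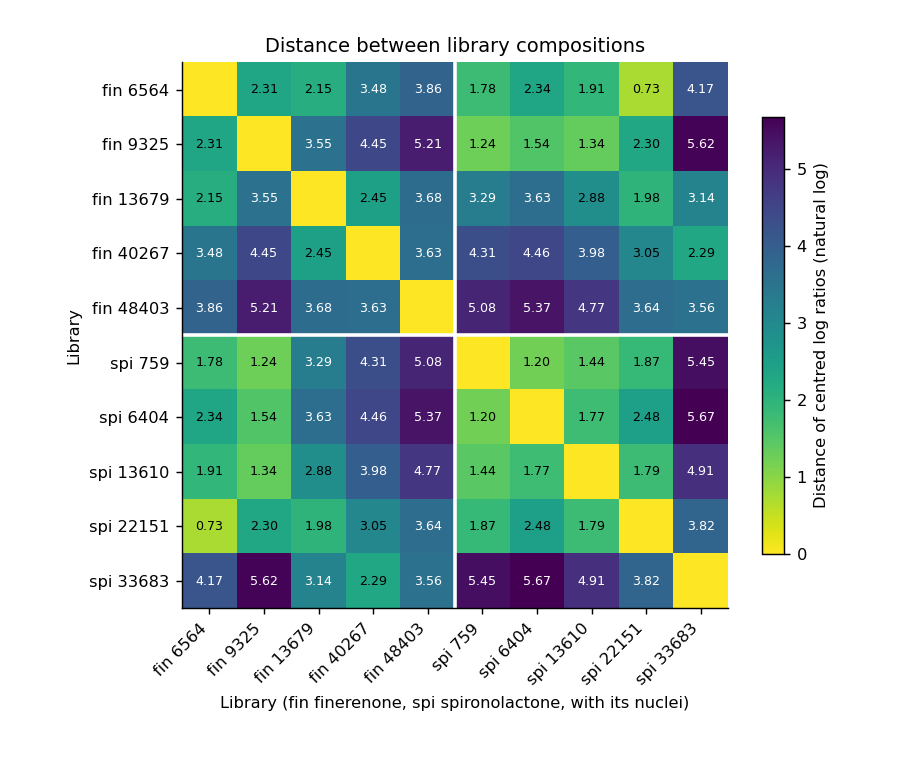
Distance between the compositions of all pairs of libraries, with the drug and number of nuclei on both axes. Numbers and colors give the distance of centered log ratios (natural log), and white lines separate the drugs. The low values run across the drugs (0.73 for finerenone 6564 and spironolactone 22151), and the high values follow the libraries over 30000 nuclei.

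The position of nuclei within a cell type was compared on the deposited UMAP. This map places nuclei with similar transcripts close together, after the authors' batch correction with Harmony. For each nucleus the 30 nearest nuclei of its own type in other libraries of both treatments were taken, and the number from the same drug was divided by that expected from the numbers of nuclei. The mean ratio over libraries was 1.02, from 0.479 in the spironolactone library of 33683 nuclei to 1.38 in that of 6404 nuclei. It was above 1 in 6 of 10 libraries (exact one-sided permutation p = 0.246). This mean averages opposite patterns. Up to 30000 nuclei, the 3 finerenone libraries were below 1 (0.615 to 0.859) and the 4 spironolactone libraries above it (1.23 to 1.38). Over 30000 nuclei, the finerenone libraries were above 1 (1.09 and 1.13) and the spironolactone library was at 0.479. Of the 3 large libraries 2 were finerenone libraries. With only the 7 libraries up to 30000 nuclei, the mean ratio was above 1 by 0.0134 (exact one-sided permutation p = 0.343). By cell type the mean ratio was between 0.846 and 1.51. It was highest in PST, where it ranged from 0.287 to 2.92 between libraries, and in PC it was 0.880 and in iPT 0.969. Neighbors were shared more often between libraries on the same side of 30000 nuclei. This split is also that of the tag New, and it was not tested. The 3 libraries over 30000 nuclei had 1.43 to 1.72 times the expected number of neighbors in each other and 0.422 to 0.532 times in the rest. The 7 others had 0.400 to 0.697 times in the large libraries and 1.50 to 2.10 times among themselves. A UMAP keeps near neighbors but not distances, so these ratios describe the map. Each library has 1 drug, so the batch correction may also have lessened differences between the drugs. A mean ratio near 1 therefore does not show that nuclei of both drugs had similar transcripts.

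**Figure D5:**
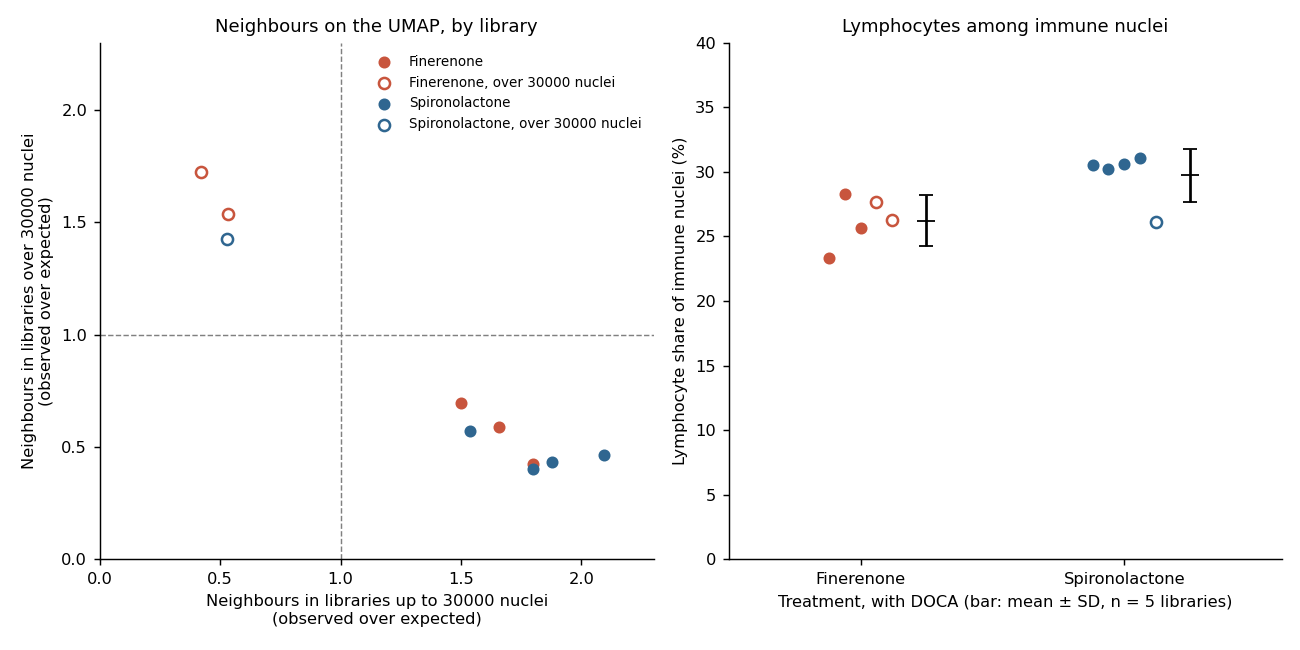
Left, neighbors on the batch-corrected UMAP within cell types, as observed over expected numbers. The horizontal axis is for libraries up to 30000 nuclei and the vertical axis for those over 30000 nuclei. Each point is a library, open points are over 30000 nuclei, and dashed lines mark 1. The open points of both drugs lie together at the upper left and all filled points at the lower right. Right, lymphocyte share of immune nuclei (%) in each library with mean ± SD (n = 5), where only the open spironolactone point (26.1%) lies within the finerenone range.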

How the data were processed

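The authors aligned snRNA-Seq reads to the rat genome (rn6) with Cell Ranger, counting introns (versions 3.0.2 and 6.0.1 in the submitters' notes). SoupX was run against ambient RNA and DoubletFinder against doublets. They filtered nuclei by genes and mitochondrial percentage, merged them in Seurat, corrected with Harmony and named clusters by markers. The deposited annotation names every nucleus by library, treatment and type, and its UMAP coordinates, as deposited, are a unitless score. Depth per nucleus, cluster numbers and gene values were not used here.

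Each library was given the group of its treatment column. Library names matched no sample title, but each treatment has as many libraries as samples. The cell types, related shares and tests were chosen with earlier results of these data known. The test was planned over samples and was made over libraries. Shares (percent) were computed per library and compared as equally weighted means by exact permutation tests, with intervals from inverting the test and Benjamini-Hochberg adjustment within the 16, 14 and 10 shares. Nuclei were not taken as replicates. Distances used centered log ratios with a pseudocount of 0.5. Python 3.11.15, pandas 2.3.3, numpy 2.4.6 and scipy 1.17.1 were used, and the code was tested on simulated data. The alternatives tried were pooled nuclei, a logit scale, subsets of libraries (without those over 30000 nuclei, without Multiome, with or without an Old or New tag), leaving out each library in turn, other pseudocounts, distances and neighbor numbers. Merging the spironolactone libraries of 13610 and 33683 nuclei, whose names share a number, was added after the data were seen. Binomial intervals cover counting error only.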

Additional observations from a re-analysis of the deposited data

Results flagged for a closer look

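In each group of 5 libraries, a value was marked where its gap to the nearest other value, divided by the range, was above Dixon's critical value of 0.71. Among 80 groups 13 values were marked, and 11 of these were in libraries over 30000 nuclei. Chance marks about 1 in 20 groups, and the shares of one library are not independent.

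Of all nuclei, 6 of 32 groups were marked. In the finerenone library of 48403 nuclei these were PST at 63.8% and DCT at 2.52%, and in that of 40267 nuclei Podo at 4.61%. In the spironolactone library of 33683 nuclei they were LOH at 32.7%, Podo at 7.68% and MyoFib at 1.74%.

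Without PST and LOH, the spironolactone library of 33683 nuclei was marked for Podo at 13.7% and MyoFib at 3.11%. In libraries up to 30000 nuclei, PC was marked at 7.41% in the finerenone library of 6564 nuclei, and Prolif_Tubule at 0.774% in the spironolactone library of 13610 nuclei.

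Among related shares, 3 were marked, each in the spironolactone library of 33683 nuclei. MyoFib made up 47.8% of fibroblasts and myofibroblasts, Mac 67.6% of macrophages and monocytes, and lymphocytes 26.1% of immune nuclei. The last is the value that brings the spironolactone libraries into the finerenone range.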

How the results depend on the processing

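No alternative gave an adjusted p under 0.05 for any of the 16, 14 or 10 shares, which 1 share alone could not reach in any of them (with all libraries, 0.0794 at best over 10). Without libraries over 30000 nuclei or without Multiome the smallest possible p was 0.0286, so 1 share alone could not go below 0.286 adjusted over 10. Differences in Fibroblast, IC_A, Lymphocyte, Mac, Mono and Prolif_Tubule (both denominators), the immune share, lymphocytes of immune, IC_A of intercalated, DCT of DCT and LOH, and MyoFib of fibroblasts and myofibroblasts kept their sign in every alternative. PST of all nuclei kept it in each alternative but turned to -1.15 when nuclei were pooled and the libraries over 30000 nuclei left out together. The lymphocyte share of immune nuclei was -2.06 to -4.89 percentage points apart over all alternatives on that scale, with adjusted p from 0.159 to 1.00, and its unadjusted p was 0.114 without the Multiome libraries. The cause of the sign changes below was not tested.

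Values are finerenone minus spironolactone in percentage points, first of all nuclei and then without PST and LOH. Pooled over nuclei, PCT became 4.55 and IC_B -0.267, then IC_B -0.104 and Endo -1.60. On the logit scale (no unit), Podo became 0.359, then DCT 0.0915, Podo 0.479 and Endo -0.101. Without libraries over 30000 nuclei, iPT became 0.0164, LOH 1.64, DCT 1.25, PC 0.202, Podo 0.219 and Endo 1.97, then PCT -5.15, iPT 0.295, DCT 1.86, PC 0.493 and Podo 0.308. The same setting gave iPT of proximal tubule 1.05, PC of PC and intercalated 3.84, tubule of all nuclei -1.29 and a composition distance difference of 0.0182. Without Multiome, IC_B became -0.0843, Endo without PST and LOH -2.15 and PC of PC and intercalated 3.26. With tagged libraries only, PCT became 7.48, iPT 0.252, IC_B -0.00548 and Endo 0.842, then iPT 0.142, IC_B -0.105 and MyoFib -0.0115, and PST of PCT and PST -0.610. With untagged libraries only, LOH became 0.296, DCT 1.76, PC 1.07 and Podo 0.0358, then PCT -4.36, iPT 0.0652, DCT 2.77, PC 1.90 and Podo 0.0865, with PC of PC and intercalated 11.5 and Mac of macrophages and monocytes 1.87. With the 2 spironolactone libraries merged, Endo without PST and LOH became -0.108.

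Leaving out each library in turn, the sign turned within these ranges. Of all nuclei, PCT ranged from -5.04 to 1.88, iPT -2.02 to 0.348, LOH -6.01 to 0.529, DCT -1.34 to 0.623, IC_B -0.0915 to 0.359, Podo -1.06 to 1.18, Endo -2.26 to 1.17 and MyoFib -0.0897 to 0.614. Without PST and LOH, iPT ranged from -1.86 to 0.583, DCT -1.95 to 1.79, PC -1.89 to 0.139, Podo -1.52 to 1.96, Endo -2.19 to 1.61 and MyoFib -0.113 to 0.910. Among related shares, iPT ranged from -3.61 to 0.430, PST -2.62 to 12.2, PC -2.68 to 2.44 and tubule -1.16 to 3.83. The distance difference ranged from -0.324 to 0.216 and the neighbor ratio minus 1 from -0.0887 to 0.316.

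The splits by tag leave 3 against 2 libraries and cannot reach a p under 0.05. No paired analysis was possible because library names were not matched to the replicate numbers of the labels. Comparisons of depth per nucleus and of cluster shares were planned but were not analysed here.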
